A study of Ovis aries with 48 samples.

Results

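MIR10A and MIR10B are the sheep microRNAs of the miR-10 family that lie in HOX clusters, and they were taken by name from tables of small RNA libraries of adipose tissue. They are 2 of the 80 microRNAs with a mean of at least 5 normalised counts in one cohort and of the 73 in the other, and 1.9% of all microRNAs listed. The rule that names them uses no measured value, but they were chosen with earlier results of these data known. Low epicardial levels of both microRNAs and high perirenal MIR10B were among those results, and are therefore no independent support here. Both microRNAs passed that filter in every comparison made here. In RefSeq's sheep annotation MIR10A lies within HOXB3 on chromosome 11, next to HOXB4 and HOXB5, and MIR10B lies within HOXD4 on chromosome 2, between HOXD3 and HOXD8. HOX genes encode transcription factors that give cells their position along the body axis, and the clustered genes are expressed in an order that follows their place in the cluster. MicroRNAs of the miR-10 family are transcribed together with the HOX genes around them and repress HOX and other messages that carry a site for their seed. In humans and mice, fat depots of different body regions keep different HOX expression into adult life. The mature strands of MIR10A and MIR10B are nearly identical and share their seed, and the sources used here do not say how reads that fit both genes were counted. Rows of the tables name the gene and not the arm.

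Small RNA was sequenced from whole adipose tissue of 16 female sheep in 2 cohorts of 8 animals, which gave 48 libraries in 12 groups of 4. In the prenatal T cohort, 4 prenatal T sheep were born to mothers given 100 mg testosterone propionate intramuscularly 2 times a week from day 30 to day 90 of gestation, and 4 control sheep were set against them; the sources used here do not say what the mothers of these controls received. Each of these 8 sheep gave epicardial, perirenal, visceral and subcutaneous fat. In the BPA cohort, 4 BPA sheep were born to mothers injected subcutaneously every day with bisphenol A, a compound of plastics that acts on oestrogen receptors, at 0.5 mg per kg in corn oil over the same days, and the mothers of 4 control sheep received corn oil. Each of these 8 sheep gave visceral and subcutaneous fat. Animals of both cohorts were fed a maintenance diet, and the labels give no age. Within a group each library came from a different sheep, so that the spread within a group is a spread between animals.

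The libraries held 222537 to 1533680 microRNA reads (median 605582.5). MIR10A was represented by 136 to 8738 reads and MIR10B by 178 to 30266, so that counting error of the log2 ratio of the pair was 0.0175 to 0.164 in a library. This error covers counting alone, since reads without molecular identifiers are not independent molecules. The deposited values had been scaled separately in each depot, so levels are given as normalised counts rescaled over the libraries of a cohort together wherever depots are compared. MicroRNAs abundant in adipocytes (MIR103, MIR107 and MIR148A, 3 of 4 listed) summed to between 2437 and 35119.6 CPM (reads scaled to equal library totals) over the 48 libraries. MIR133, the measured member of a list of 7 striated muscle microRNAs, reached 372 to 25852 CPM in epicardial fat, and its highest value was 2573 CPM in the other depots. MIR150, the measured member of 4 leukocyte microRNAs, lay between 879 and 11702 CPM. The epithelial and mesothelial MIR200A, MIR200B and MIR200C (3 of 6 listed) summed to at most 719.7 CPM. In the BPA cohort they lay at 210 to 719.7 CPM in visceral and 29 to 332 CPM in subcutaneous fat. In the prenatal T cohort they lay at 4.5 to 408 CPM in visceral and 10 to 44 CPM in subcutaneous fat. Their part in differences between visceral and subcutaneous fat was not tested. In whole tissue, fewer cells of a type and less RNA per cell cannot be told apart.

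Library numbers in the labels fell into an early set (up to 48) and a later set (from 81) of 24 libraries each, spread unevenly over the groups. The later set held 6 of 8 epicardial, 5 of 8 visceral, 1 of 8 perirenal and 1 of 8 subcutaneous libraries of the prenatal T cohort, and 4 of 8 visceral and 7 of 8 subcutaneous libraries of the BPA cohort. Both microRNAs were lower in the later set. With depot and treatment held fixed in the prenatal T cohort, MIR10A differed between later and early libraries by -0.97 on the log2 scale (SE 0.19, limma adjusted p = 1.71e-04) and MIR10B by -1.19 (SE 0.19, adjusted p = 1.22e-05), in a comparison where 37.5% of the 80 microRNAs tested passed. In the BPA cohort the differences were -1.32 for MIR10A (SE 0.27, adjusted p = 0.00386) and -1.03 for MIR10B (SE 0.23, adjusted p = 0.00481), where 9.59% of 73 passed. In 5 of the 6 sets of libraries of a depot and cohort, every later library lay below every early one for MIR10A. The same held for MIR10B, and visceral fat of the prenatal T cohort was the exception for each. Perirenal and subcutaneous fat of the prenatal T cohort held 1 later library each, and subcutaneous fat of the BPA cohort held 1 early library. Epicardial fat held 2 early libraries, both of prenatal T sheep. How many other microRNAs parted in this way was not counted. The later libraries lay below the early ones in 0 of 6 for the ratio of MIR10A to MIR10B, and above them in 1, perirenal fat, where the later set held 1 library. What the numbers stand for is not given, so the depot differences below are also given with a term for the set added to the same fit. The test of the set itself was added after the data had been seen.

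Epicardial fat, the fat on the heart, had the lowest MIR10A of the prenatal T cohort. The values of each group follow the order of prenatal T sheep 48, 185, 233 and 255 and of control sheep 098, 131, 132 and 201. MIR10A had rescaled normalised counts of 292, 488, 147 and 427 in epicardial fat of prenatal T sheep, against 246, 265, 212 and 119.6 in epicardial fat of control sheep. In perirenal fat, which surrounds the kidney, it had 3323, 4825, 3173 and 2309.7 in prenatal T sheep, against 1586, 4625, 3839 and 4776 in control sheep. No epicardial library came near a perirenal one. In visceral fat MIR10A had 1609, 1628, 2047 and 2901 in prenatal T sheep, against 1178, 2559, 2163 and 2253 in control sheep. In subcutaneous fat it had 3742, 4636, 5179 and 5281 in prenatal T sheep, against 3833, 2981, 6035 and 1904 in control sheep. The highest epicardial library lay below the lowest of the other 24 libraries, while perirenal, visceral and subcutaneous libraries overlapped with each other.

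MIR10B reached its highest values in perirenal fat. It had 471, 1099, 517 and 1616 in epicardial fat of prenatal T sheep, against 649, 347, 466 and 285 in epicardial fat of control sheep. In perirenal fat it had 11509.8, 13175, 12017 and 6311 in prenatal T sheep, against 3716, 11298, 11817 and 14053 in control sheep. The later perirenal library, of control sheep 098, was the lowest of its depot. In visceral fat MIR10B had 1236, 1243, 1137 and 3125 in prenatal T sheep, against 833, 1452, 929.5 and 1129 in control sheep. In subcutaneous fat it had 5782, 5782, 4993 and 6755 in prenatal T sheep, against 6532, 5865, 6038 and 2340.2 in control sheep. Epicardial and visceral libraries overlapped, and so did perirenal and subcutaneous ones, but no epicardial library reached a perirenal or subcutaneous one. As a share of microRNA reads, perirenal fat had a mean of 1.82% MIR10B (SD 0.616, n = 8), and epicardial fat 0.137% (SD 0.0974, n = 8). MIR10B was the microRNA of median rank 12 by abundance in perirenal libraries and of median rank 35.5 in epicardial ones.

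**Figure D1:**
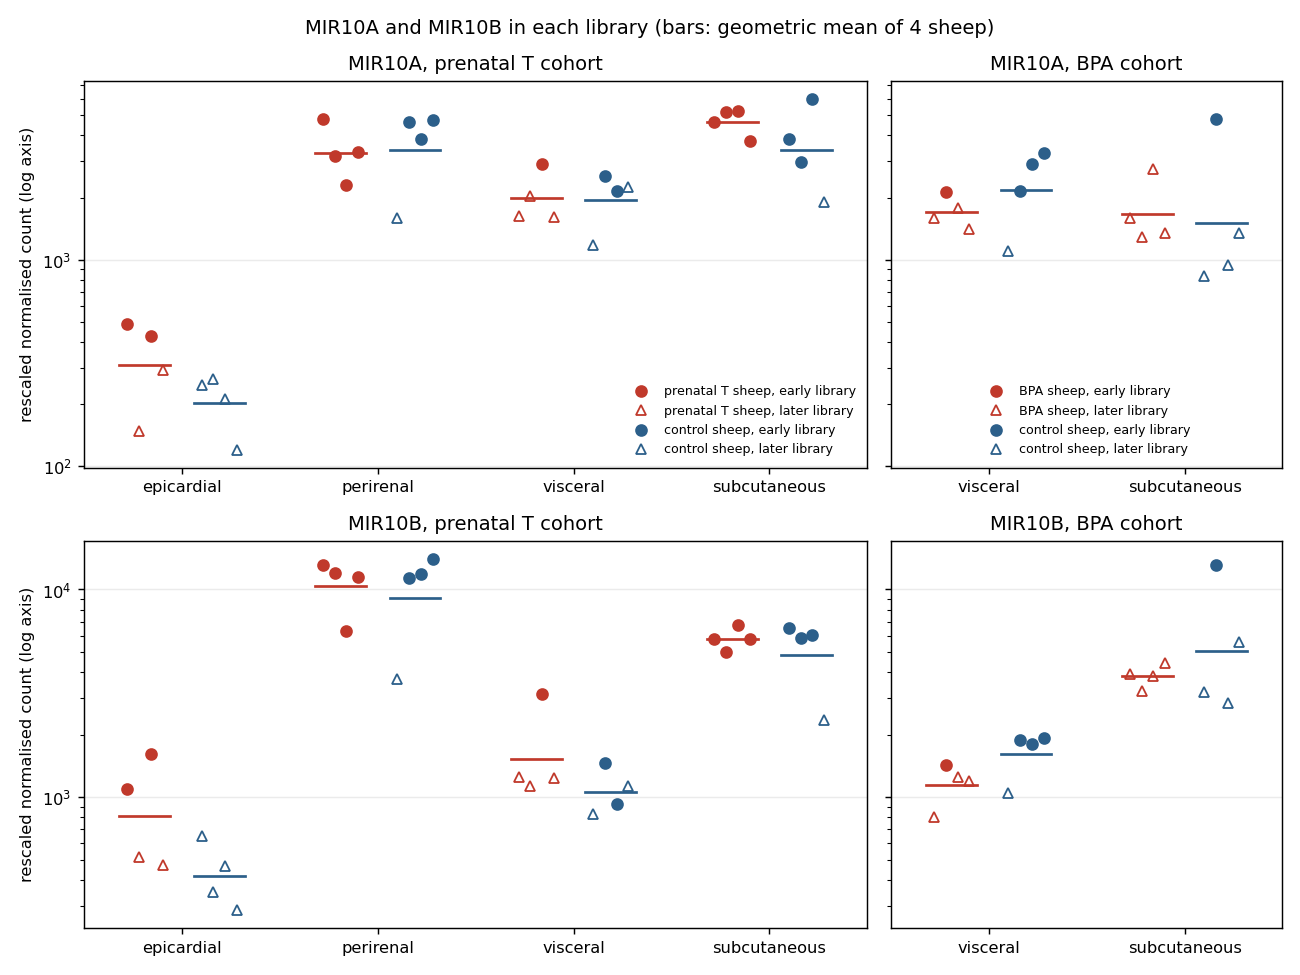
Rescaled normalised counts of MIR10A (top) and MIR10B (bottom) on log axes, a point for each library, by depot in the prenatal T cohort (left) and the BPA cohort (right). Bars are geometric means of 4 sheep, red is treated and blue control, filled circles are early and open triangles later libraries; the 8 epicardial libraries lie lowest for MIR10A (119.6 to 488), and perirenal libraries hold the highest MIR10B of the prenatal T cohort (up to 14053).

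Depots were compared in pairs within the prenatal T cohort, averaged over prenatal T and control sheep, in 1 limma fit over 80 microRNAs with Benjamini-Hochberg adjustment over all of them. Against perirenal fat, epicardial fat was 13.4-fold lower in MIR10A (log2 difference -3.74, SE 0.27, adjusted p = 7.74e-13) and 16.7-fold lower in MIR10B (log2 difference -4.06, SE 0.30, adjusted p = 7.74e-13). Both members passed, against 21.2% of the microRNAs tested, and they had the lowest values of the 80. Both differences passed when the set was held fixed (-3.13, adjusted p = 2.14e-12 for MIR10A, and -3.32, adjusted p = 4.28e-13 for MIR10B). Within the later set, MIR10B lay at 285 to 649 in 6 epicardial libraries, against 3716 in the single perirenal one. Within the early set it lay at 1099 to 1616 in 2 epicardial libraries, against 6311 to 14053 in 7 perirenal ones. The depots were thus apart in each set.

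Against subcutaneous fat, epicardial fat was 15.9-fold lower in MIR10A (log2 difference -3.99, SE 0.27, adjusted p = 2.59e-13) and 9.09-fold lower in MIR10B (log2 difference -3.18, SE 0.30, adjusted p = 3.58e-10), where 60% of the microRNAs passed. The values within sets were -3.38, adjusted p = 6.16e-13 for MIR10A and -2.44, adjusted p = 4.37e-10 for MIR10B. Against visceral fat the members parted. MIR10A was 7.89-fold lower in epicardial fat (log2 difference -2.98, SE 0.27, adjusted p = 4.47e-10), and MIR10B was 2.19-fold lower (log2 difference -1.13, SE 0.30, adjusted p = 0.0132), where 12.5% of the microRNAs passed. With the term for the set they were -2.86, adjusted p = 1.01e-12 for MIR10A and -0.98, adjusted p = 5.63e-04 for MIR10B. The MIR10B difference depended on the scaling: with reads scaled to equal totals it was -0.63 (adjusted p = 0.179), and on the deposited scale 0.04 (adjusted p = 0.885). Leaving out sheep 131 gave -1.02 (adjusted p = 0.0711). MIR133 lay at 372 to 25852 CPM in epicardial fat of prenatal T sheep and 1295 to 6332 CPM in that of control sheep, and its part in these differences was not tested. MIR150 lay at 2757 to 8144 CPM in epicardial fat, 879 to 6294 CPM in perirenal, 2303 to 6549 CPM in visceral and 1277 to 5313 CPM in subcutaneous fat, and its part was likewise not tested.

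Perirenal fat differed from visceral fat far more in MIR10B than in MIR10A. MIR10B was 7.63-fold higher in perirenal fat (log2 difference 2.93, SE 0.30, adjusted p = 5.04e-09), the highest value of the 80 microRNAs, of which 26.2% passed; the set term made it 2.34, adjusted p = 7.30e-10. MIR10A was 1.7-fold higher (log2 difference 0.76, SE 0.27, adjusted p = 0.0401), a difference that no longer passed with the set term (0.28, adjusted p = 0.487), and that did not pass when one of 6 of the 8 sheep was left out (0.62 to 0.93 over all 8, adjusted p up to 0.15). Against subcutaneous fat, MIR10B was 1.84-fold higher in perirenal fat (log2 difference 0.88, SE 0.30, adjusted p = 0.0163), where 48.8% of the microRNAs passed; the difference with a set term was 0.88, adjusted p = 3.76e-04. Without sheep 131, 201 or 233 it did not pass (adjusted p = 0.0543, 0.111 and 0.0598). MIR10A did not differ detectably between perirenal and subcutaneous fat (log2 difference -0.25, SE 0.27, adjusted p = 0.469, 95% interval -0.81 to 0.31), the fit with the set gave -0.25, adjusted p = 0.302, and the sign depended on the scaling, at 0.57 as deposited and 0.04 with equal totals. MIR143, the measured smooth muscle microRNA, lay at 37169.6 to 175334 CPM in perirenal fat, 19377 to 153692 CPM in visceral fat and 21069.7 to 73833 CPM in subcutaneous fat. Its part in the perirenal level of MIR10B was not tested.

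Visceral fat, which lies among the abdominal organs, was 2.02-fold lower than subcutaneous fat in MIR10A (log2 difference -1.01, SE 0.27, adjusted p = 0.00279) and 4.15-fold lower in MIR10B (log2 difference -2.05, SE 0.30, adjusted p = 3.61e-06), where 42.5% of the microRNAs passed. With the set term MIR10A no longer passed (-0.52, adjusted p = 0.0582) while MIR10B did (-1.46, adjusted p = 7.67e-06). In order of level, MIR10A therefore ran from subcutaneous and perirenal fat, which did not differ beyond their spread, through visceral to epicardial fat, and the step between perirenal and visceral fat did not pass in every fit. MIR10B ran from perirenal through subcutaneous and visceral to epicardial fat, with each step past the threshold with and without the set term. Perirenal and subcutaneous libraries were spread alike over the sets, so the set term could not change the size of the step between them. Of these steps, perirenal to subcutaneous fat did not pass in every fit that left out a sheep. The step from visceral to epicardial fat did not either, and it depended on the scaling. The median of all 80 microRNAs in these pairs lay between -0.03 and 0.19 on the log2 scale.

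**Figure D2:**
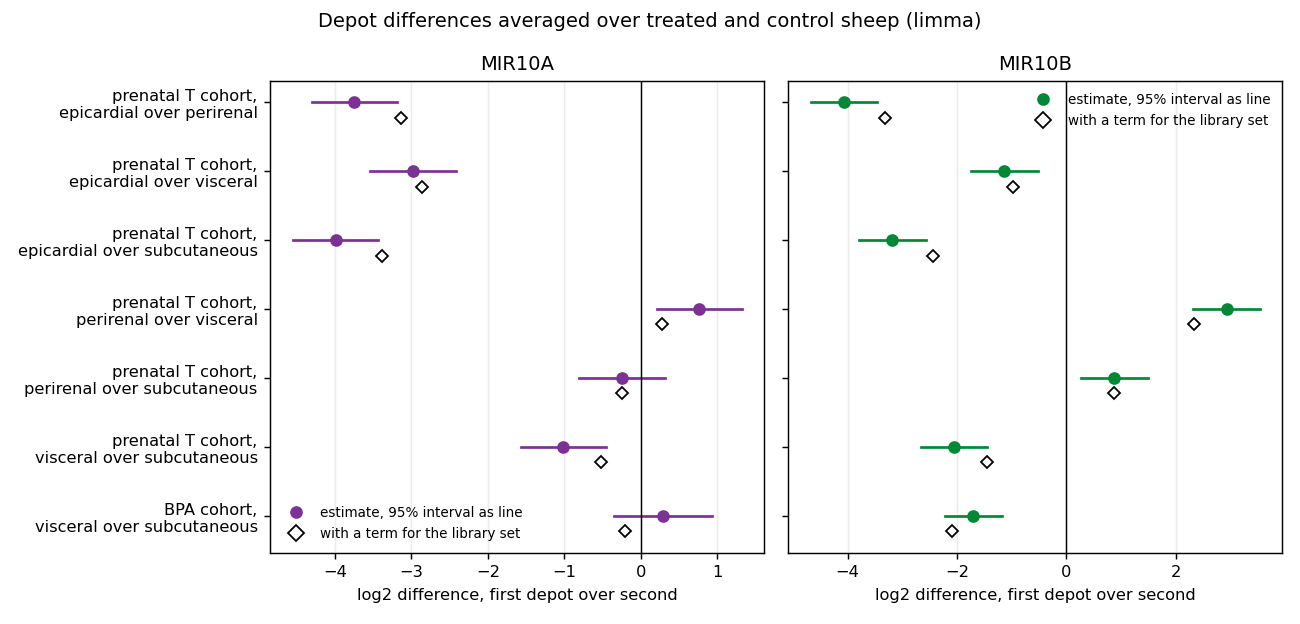
Log2 differences between depots (first depot over second) for MIR10A and MIR10B, with 95% intervals from limma as lines and the value with a term for the library set as an open diamond. Epicardial differences lie left of 0 for both members, from -4.06 to -1.13, and the perirenal over visceral difference is 2.93 for MIR10B against 0.76 for MIR10A.

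Against perirenal fat, both microRNAs were lower in epicardial fat in each treatment group taken alone. MIR10A of epicardial over perirenal fat was -3.41 in prenatal T sheep (adjusted p = 3.89e-08), where 6.25% of the microRNAs passed, and -4.07 in control sheep (adjusted p = 5.10e-10), where 16.2% passed. MIR10B was -3.67 in prenatal T sheep (adjusted p = 3.89e-08) and -4.45 in control sheep (adjusted p = 5.10e-10). Holding the set fixed gave -2.93 and -3.34 for MIR10A in prenatal T and control sheep, and -3.08 and -3.56 for MIR10B. Against visceral fat, MIR10B did not pass in either group alone without the set term, and passed in prenatal T sheep with it. Without the set term it was -0.91 in prenatal T sheep (adjusted p = 0.306), where 2.5% of the microRNAs passed. With the set fixed it was -1.21 (adjusted p = 0.00591). In control sheep it was -1.35 without the set term (adjusted p = 0.0645), where 3.75% passed, and -0.75 with the set fixed (adjusted p = 0.0711). The shares of microRNAs that passed with the set fixed are not given. Whether a depot difference depended on treatment was tested by the interaction in the same fit. For MIR10A and MIR10B the interactions lay between -0.51 and 0.78 over the 7 depot pairs of the 2 cohorts, with SE up to 0.61 and adjusted p of at least 0.664. The limma fits called 0 of 80 or 73 microRNAs in any pair, with 1 to 6 at an unadjusted p under 0.05, edgeR called 0, and DESeq2 called 0 to 2.

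The ratio of MIR10A to MIR10B within a library does not depend on how the library was scaled. It compares reads of a pair of near-identical sequences, whose capture during library making may differ, so it is set against other depots and not read as the ratio of molecules. In epicardial fat the ratio was 0.62, 0.444, 0.285 and 0.264 in prenatal T sheep, against 0.379, 0.764, 0.454 and 0.42 in control sheep. In perirenal fat it was 0.289, 0.366, 0.264 and 0.366 in prenatal T sheep, against 0.427, 0.409, 0.325 and 0.34 in control sheep. MIR10B outnumbered MIR10A in each of these 16 libraries. In visceral fat the ratio was 1.3, 1.31, 1.8 and 0.928 in prenatal T sheep, against 1.41, 1.76, 2.33 and 2.0 in control sheep. In subcutaneous fat it was 0.647, 0.802, 1.04 and 0.782 in prenatal T sheep, against 0.587, 0.508, 1.0 and 0.814 in control sheep. Visceral fat had the highest ratio in 8 of 8 sheep, subcutaneous fat came second in 7 of 8, and perirenal fat was lowest in 6 of 8.

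**Figure D3:**
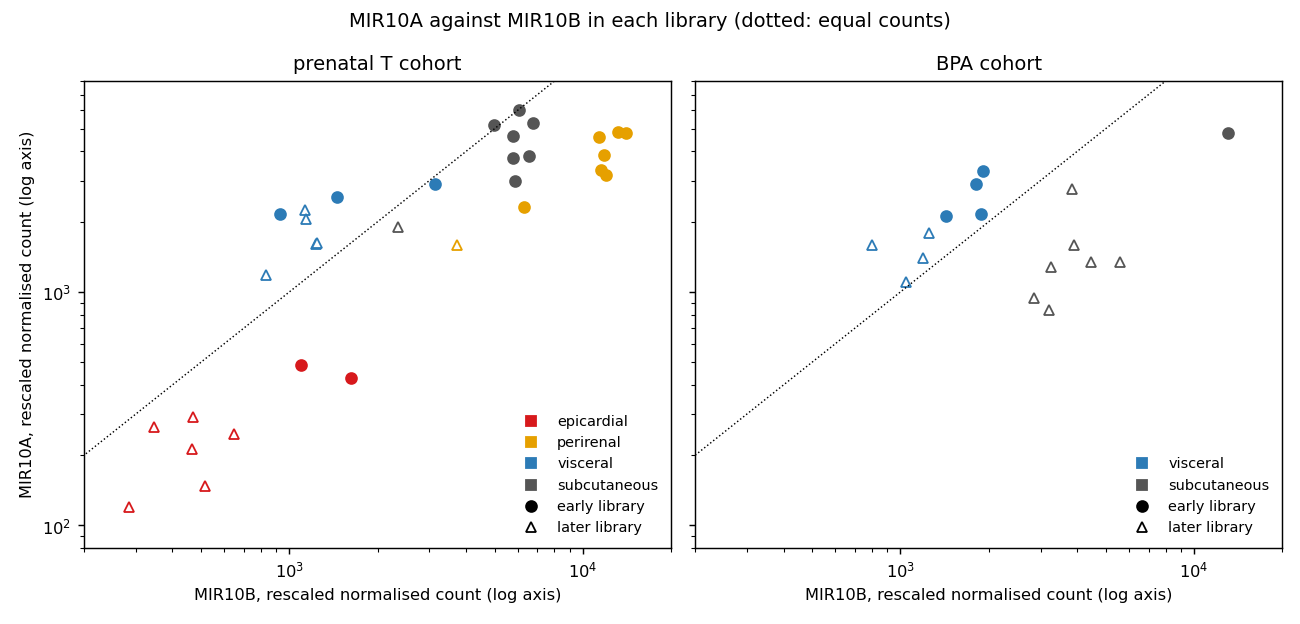
MIR10A against MIR10B in each library as rescaled normalised counts on log axes, by depot, with filled circles for early and open triangles for later libraries. Points above the dotted line hold more MIR10A than MIR10B: 15 of 16 visceral libraries and 1 of the 32 others lie there.

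Differences in the log2 ratio were taken within a sheep and tested by exchanging depots within each of the 8 sheep, a two-sided exact permutation test whose smallest p is 0.00781, with Benjamini-Hochberg adjustment over 7 depot pairs. Epicardial over visceral fat differed by -1.85 (SD 0.56, exact permutation p = 0.00781, adjusted p = 0.0109), with a geometric mean ratio of 0.429 in epicardial and 1.55 in visceral fat, and it was lower in 8 of 8 sheep. Perirenal over visceral fat differed by -2.17 (SD 0.53, exact permutation p = 0.00781, adjusted p = 0.0109), with a geometric mean of 0.344 in perirenal fat, again lower in 8 of 8 sheep. The libraries of these pairs did not overlap. Perirenal over subcutaneous fat differed by -1.13 (SD 0.55, exact permutation p = 0.00781, adjusted p = 0.0109), lower in 8 of 8 sheep and again without overlap, with a geometric mean of 0.752 in subcutaneous fat. Visceral over subcutaneous fat differed by 1.04 (SD 0.47, exact permutation p = 0.00781, adjusted p = 0.0109), higher in 8 of 8 sheep although the ranges of the depots overlapped. Epicardial over subcutaneous fat was lower in 7 of 8 sheep, at -0.81 (SD 0.79, exact permutation p = 0.0234, adjusted p = 0.0273), and the exception was sheep 131.

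The ratio did not separate epicardial from perirenal fat, where it was higher in 6 of 8 sheep by 0.32 (SD 0.52, exact permutation p = 0.141, adjusted p = 0.141). Without sheep 255 that difference was 0.43 (exact permutation adjusted p = 0.0469), and in sheep whose libraries of both depots were of the same set it was -0.12. The epicardial over subcutaneous difference did not pass without sheep 098, 132, 185, 201 or 233 (adjusted p = 0.0547 in each case). In sheep whose libraries were of the same set, epicardial over visceral fat was -1.94, perirenal over visceral fat -2.0, perirenal over subcutaneous fat -1.22 and visceral over subcutaneous fat 1.14. These values are given without a test, since 3 to 6 sheep were left in a pair and the smallest adjusted p they allow is 0.146.

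**Figure D4:**
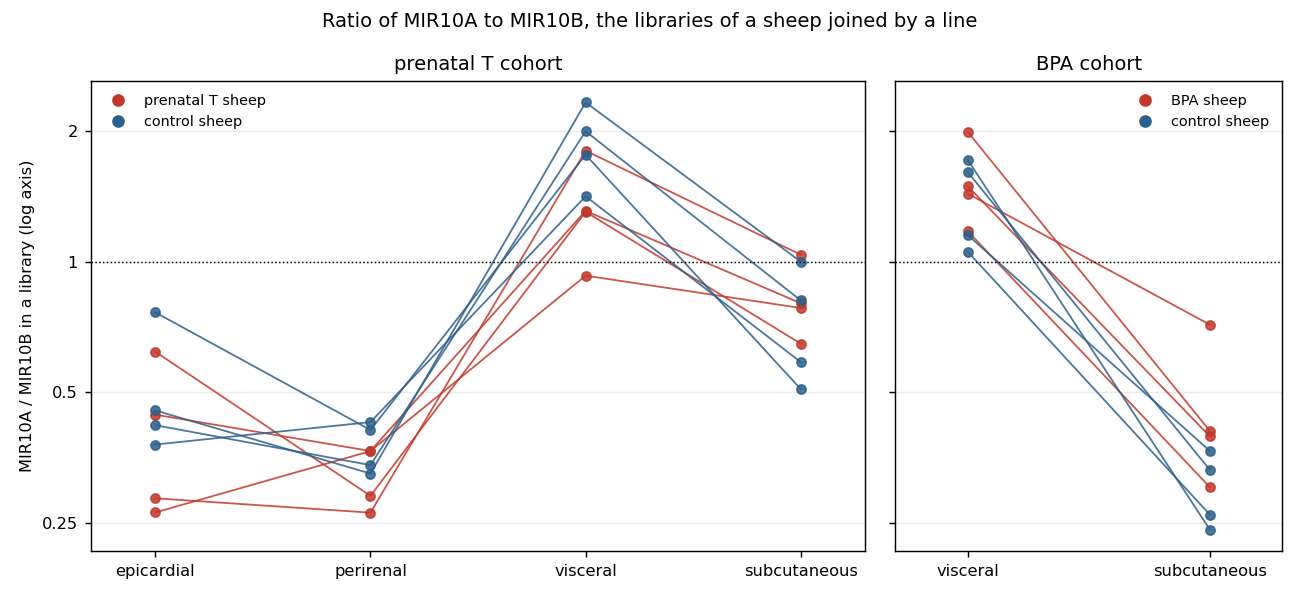
Ratio of MIR10A to MIR10B in each library on a log axis, the libraries of a sheep joined by a line, treated sheep in red and control sheep in blue, with equal counts as a dotted line. Every line of the prenatal T cohort peaks in visceral fat, and every line of the BPA cohort is higher in visceral than in subcutaneous fat.

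The BPA cohort repeated the comparison of visceral with subcutaneous fat in 8 other sheep. Its values follow the order of BPA sheep 910, 918, 977 and 984 and of control sheep 902, 908, 924 and 928. MIR10B had rescaled normalised counts of 799, 1424, 1248 and 1194 in visceral fat of BPA sheep, against 1045, 1879.8, 1807 and 1916 in that of control sheep. In subcutaneous fat it had 3895, 3246, 3851 and 4445 in BPA sheep, against 3196, 13087, 2845 and 5588 in control sheep. The highest visceral library lay below the lowest subcutaneous one. Visceral fat was 3.25-fold lower in MIR10B (log2 difference -1.70, SE 0.25, adjusted p = 1.80e-05 by limma), where 53.4% of 73 microRNAs passed, and MIR10B had the second lowest value of the 73. Holding the set fixed gave -2.09, adjusted p = 1.16e-07.

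MIR10A had 1589, 2124, 1789.5 and 1403 in visceral fat of BPA sheep, against 1102, 2164, 2904 and 3287 in that of control sheep. In subcutaneous fat it had 1587, 1285, 2756 and 1344 in BPA sheep, against 835, 4794, 943 and 1349 in control sheep. The depots overlapped, and the subcutaneous library of control sheep 908, the single early library of its depot, stood well above the other 7. The difference did not pass (log2 difference 0.29, SE 0.31, adjusted p = 0.423, 95% interval -0.35 to 0.93) and its direction was not settled. The set term turned it to -0.21, adjusted p = 0.451, and it was 0.57 (adjusted p = 0.0477) without sheep 908. In the prenatal T cohort the same pair had MIR10A at -1.01. The cohorts were scaled separately, and the difference between them was not tested.

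The ratio of MIR10A to MIR10B was 1.99, 1.49, 1.43 and 1.18 in visceral fat of BPA sheep, against 1.05, 1.15, 1.61 and 1.72 in that of control sheep. In subcutaneous fat it was 0.407, 0.396, 0.716 and 0.302 in BPA sheep, against 0.261, 0.366, 0.331 and 0.241 in control sheep. MIR10A exceeded MIR10B in 8 of 8 visceral libraries and in 0 subcutaneous ones. Visceral over subcutaneous fat differed by 1.99 (SD 0.53, exact permutation p = 0.00781, adjusted p = 0.0109) in the log2 ratio, higher in 8 of 8 sheep, with geometric means of 1.42 in visceral and 0.358 in subcutaneous fat. Visceral means of the ratio were thus close in the cohorts (1.55 in the prenatal T cohort), while the subcutaneous mean of the prenatal T cohort was 0.752.

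Treatment was compared within each depot on the deposited values, 4 treated against 4 control sheep, and neither microRNA passed in any depot. Epicardial fat of prenatal T sheep came nearest. MIR10B had deposited normalised counts of 613, 1445, 700.2 and 2329.5 in epicardial fat of prenatal T sheep, against 783, 412, 519.6 and 323 in that of control sheep. The log2 difference was 1.18 (SE 0.42, adjusted p = 0.128), where 0% of 85 microRNAs passed by limma. DESeq2 on the recovered reads gave 1.29 (adjusted p = 0.0219), and it called 10 microRNAs in this comparison. The prenatal T sheep with high values, 185 and 255, were those with early libraries. The 4 control libraries belonged to the later set. Holding the set fixed gave a difference of 0.44. MIR10A had 380.2, 642, 199.5 and 616 in prenatal T sheep, against 297, 315, 236 and 135 in control sheep. Its difference was 0.83 (SE 0.39, adjusted p = 0.199), 0.24 with the set held fixed, and 1.18 (adjusted p = 0.0441) without sheep 233. The groups overlapped for both microRNAs. MIR150 of leukocytes lay at 2757 to 5409.6 CPM in prenatal T sheep, against 6701 to 8144 CPM in control sheep, without overlap. MIR143 of smooth muscle lay at 23874 to 91238 CPM in prenatal T sheep, against 13859.7 to 26496 CPM in control sheep, and the summed adipocyte microRNAs at 6402 to 11511 CPM, against 3384 to 7606 CPM, both with overlap. Their part in the treatment difference was not tested, and how many of the 85 microRNAs parted without overlap was not counted.

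In the other depots the groups overlapped as well. In perirenal fat MIR10A averaged 5195 ± 1657 in prenatal T sheep and 5817 ± 2233 in control sheep (deposited normalised count, SD, n = 4 each), with a log2 difference of -0.11 (SE 0.42, adjusted p = 0.933). MIR10B averaged 16486 ± 5222 in prenatal T sheep and 16049 ± 6944 in control sheep there, a difference of 0.12 (SE 0.48, adjusted p = 0.933). In perirenal fat 0% of 86 microRNAs passed, in visceral fat 0% of 76 and in subcutaneous fat 0% of 71. In visceral fat MIR10A differed by -0.02 (SE 0.32, adjusted p = 0.978) and MIR10B by 0.48 (SE 0.35, adjusted p = 0.638). In subcutaneous fat MIR10A differed by 0.36 (SE 0.36, adjusted p = 0.997) and MIR10B by 0.17 (SE 0.36, adjusted p = 0.997).

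For BPA, visceral fat had MIR10A at 1617 ± 265 in BPA sheep and 2161 ± 880.1 in control sheep, a log2 difference of -0.31 (SE 0.29, adjusted p = 0.84). MIR10B had 1102 ± 275 in BPA sheep and 1521 ± 396 in control sheep, a difference of -0.46 (SE 0.26, adjusted p = 0.84), where 0% of 76 microRNAs passed. MIR150 lay at 2543 to 3933 CPM in visceral fat of BPA sheep (1 early and 3 later libraries), against 4407 to 5139 CPM in that of control sheep (3 early and 1 later), without overlap. How many of the 76 microRNAs parted in this way was not counted, and the part of MIR150 in the treatment differences was not tested. In subcutaneous fat MIR10A differed by 0.19 (SE 0.44, adjusted p = 0.863) and MIR10B by -0.35 (SE 0.36, adjusted p = 0.7), where 0% of 71 passed. With the set term MIR10A of subcutaneous fat was 0.72. Sheep 908 gave the only early library there, so this value is the same as that without sheep 908. Over epicardial, perirenal, visceral and subcutaneous fat of the prenatal T cohort and visceral and subcutaneous fat of the BPA cohort, in that order, 20, 7, 4, 2, 4 and 6 microRNAs had an unadjusted p under 0.05 by limma. In the same order edgeR called 0, 0, 0, 2, 0 and 0 and DESeq2 called 10, 1, 1, 0, 0 and 0. Among the intervals of the 12 member differences, the lowest bound was -1.14 and the highest 2.09. These bounds came from different comparisons, and no single comparison of 4 against 4 sheep left that whole range undecided.

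**Figure D5:**
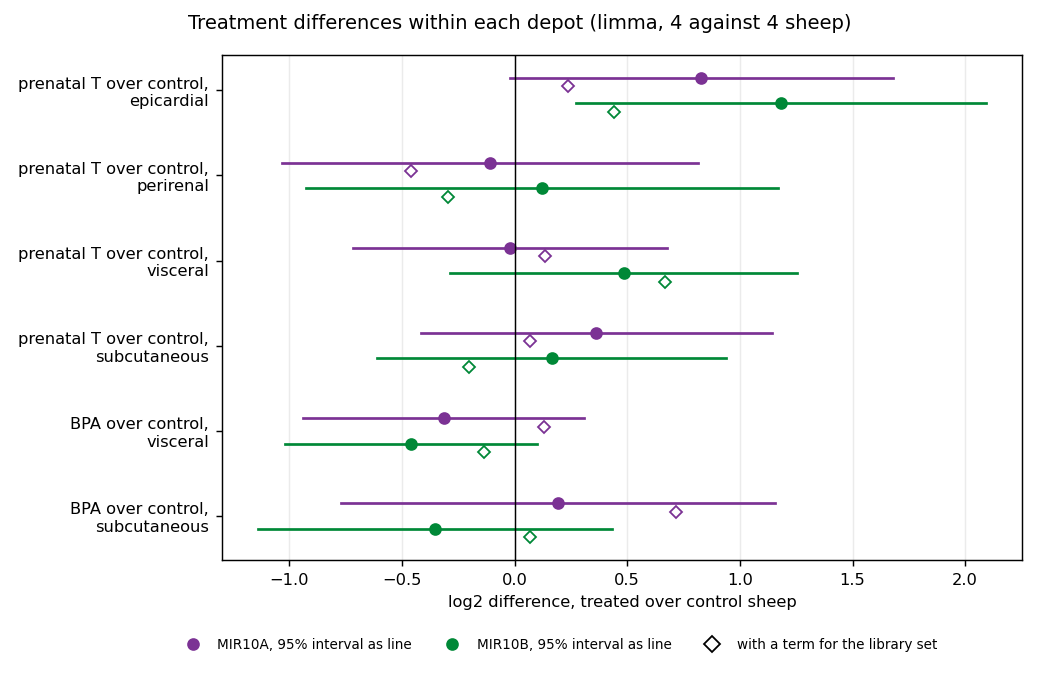
Log2 differences of treated over control sheep within each depot for MIR10A and MIR10B, with 95% intervals from limma as lines and the value with a term for the library set as an open diamond. The largest difference, MIR10B in epicardial fat (1.18), moves to 0.44 with the set term.

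The ratio of MIR10A to MIR10B did not differ past the threshold between treated and control sheep in any of 6 depots, by a two-sided exact permutation test of 4 against 4 sheep whose smallest p is 0.0286. After adjustment over the 6 depots, a single depot at that p would not pass, so the test had little room to call any. The lowest p was that of visceral fat of the prenatal T cohort, with geometric means of 1.3 in prenatal T sheep and 1.84 in control sheep (log2 difference -0.51, exact p = 0.0857, adjusted p = 0.343). In subcutaneous fat of the BPA cohort the means were 0.432 in BPA sheep and 0.296 in control sheep (log2 difference 0.55, exact p = 0.114, adjusted p = 0.343). The other 4 depots had p of at least 0.2.

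Patterns most like those of the members were ranked by Pearson r of the log2 levels over the 32 libraries of the prenatal T cohort, as a description, since the libraries share animals, scaling and library sets. For MIR10A the highest r was with MIR10B (0.86), followed by MIR152 (0.78), MIR199A (0.70), MIR143 (0.70) and MIR30A (0.70). Over the 16 libraries of the BPA cohort these r were 0.25 for MIR10B, 0.43 for MIR152, 0.46 for MIR199A, 0.64 for MIR143 and 0.16 for MIR30A. For MIR10B the highest after MIR10A were MIR143 (0.84), MIR152 (0.78), MIRLET7I (0.76) and MIRLET7F (0.72), which had 0.37, 0.91, 0.62 and 0.74 in that order in the BPA cohort. The median r over 79 microRNAs was -0.01 with MIR10A and -0.15 with MIR10B. The likeness between the members themselves was thus high across 4 depots and low across visceral and subcutaneous fat of the BPA cohort, where MIR10B differed between the depots and MIR10A was not shown to.

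Of 12 other names listed for the HOX clusters and for the related MIR99, MIR100 and MIR125 genes, 2 were measured, MIR99A, whose mature strand resembles those of MIR10A and MIR10B, and MIR125B, of the lin-4 family, whose genes lie beside those of the MIR99 family. MIR99A was lower in visceral than in subcutaneous fat in both cohorts, by a log2 difference of -0.69, SE 0.26, adjusted p = 0.0303 for the prenatal T sheep with their controls and of -0.57, SE 0.17, adjusted p = 0.00684 for the BPA sheep with theirs. With the set fixed the MIR99A differences were -0.28 (adjusted p = 0.363) and -0.65 (adjusted p = 0.00729). In the other 5 pairs MIR99A lay between -0.31 and 0.73 and did not pass (adjusted p of at least 0.0568). MIR125B did not pass in any of the 7 pairs (adjusted p of at least 0.104). With the set fixed, in fits added after seeing the data, MIR99A was higher in epicardial than in perirenal fat (0.86, adjusted p = 0.00869). It was likewise higher than in visceral (0.83, adjusted p = 0.00425) and subcutaneous fat (0.55, adjusted p = 0.0455). MIR10A and MIR10B were lower in epicardial fat in these pairs. In control sheep alone none of the MIR99A differences passed (0.56, 0.85 and 0.38, adjusted p = 0.22, 0.0689 and 0.328). For prenatal T sheep alone they were 1.17, 0.81 and 0.72 (adjusted p = 0.00967, 0.11 and 0.0483). The share of all microRNAs that passed in these fits is not given. In the same fits MIR125B of the prenatal T cohort was lower in epicardial than in subcutaneous fat (-1.14, adjusted p = 0.0169). It was also lower in visceral than in subcutaneous fat (-1.03, adjusted p = 0.0296). The visceral difference was -1.85 in prenatal T sheep (adjusted p = 0.0156) and -0.22 in control sheep (adjusted p = 0.763). Its interaction with treatment was -1.63 and did not pass (adjusted p = 0.382). The epicardial difference was -1.29 in prenatal T sheep (adjusted p = 0.0414) and -0.99 in control sheep (adjusted p = 0.145). Epicardial MIR99A averaged 74649 ± 17886 in prenatal T sheep and 42324 ± 7844 in control sheep (rescaled normalised count, SD, n = 4 each), and the treatment difference on the deposited values did not pass (1.03, SE 0.29, adjusted p = 0.0948). Of the long noncoding RNAs in the tables, 9 lie in HOX clusters by RefSeq, and none reached a mean normalised count of 5 (highest 1.93), so they were not tested.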

How the data were processed

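Per the submitters' processing notes, reads were handled with cutadapt 3.2, STAR 2.6.0c and featureCounts 1.6.1; the genome build and the counting of reads that map to several places are not stated in the sources used here. Per the labels, libraries were made from total RNA with a small RNA kit. The values the authors deposited are a normalised signal, reads per microRNA divided by a size factor, in 1 table for each cohort. All values were whole multiples of 1 read (tolerance 1e-05), so reads were recovered, and the deposited size factors equalled median ratios within the 8 libraries of a depot. Depots are therefore not on a common scale as deposited.

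For depots, the recovered reads of a cohort were rescaled by median ratios over all its libraries. Tests used limma 3.58.1 with a mean trend in R 4.3.3, on log2(value + 1) of microRNAs with a mean of at least 5, and Benjamini-Hochberg adjustment over all tested with a threshold of 0.05. Differences are on that scale, which understates those of low microRNAs. Treatment was fitted in each depot, and depots in 1 fit of group means for each cohort. Ratios were tested by exact permutation with SciPy 1.17.1 in Python 3.11.15. Alternatives were edgeR 4.0.16 and DESeq2 1.42.0 on the recovered reads, other scalings, a pseudocount of 5, no filter, a library set term, the sheep as a block, and leaving out each sheep. The fits were tested on simulated data. Labels give depots of 1 animal the same sheep, so that pairing comes from the animal; deviations from group means had a median r of 0.15 between depots of the same sheep in the prenatal T cohort and 0.18 in the BPA cohort. Any 2 libraries of the same group differed by more than sampling noise.

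MIR10A, MIR10B, the related microRNAs and marker lists were chosen with earlier results of these data known, among them low epicardial levels of both microRNAs and high perirenal MIR10B, which are therefore no independent support here. The members are named in every comparison, with the listed relatives that were measured and the 5 microRNAs most like each member by r. Gene neighbours come from RefSeq's ARS-UI_Ramb_v3.0 by name alone.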

Additional observations from a re-analysis of the deposited data

Results flagged for a closer look

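Among 36 groups and quantities of 4 sheep each, 4 held a sheep whose distance from its nearest neighbour passed Dixon's 95% critical value as a share of the group's range; chance gives about 1 in 20. MIR10A of subcutaneous fat in the BPA cohort's control sheep was highest in sheep 908, at a rescaled normalised count of 4794, the single early library of that group. MIR10B of visceral fat in the same cohort's control sheep was lowest in sheep 902, at 1045, the single later library of that group. MIR10B of subcutaneous fat in control sheep of the prenatal T cohort was lowest in sheep 201, at 2340.2, again the single later library. MIR10B of visceral fat in prenatal T sheep was highest in sheep 255, at 3125, the single early library. The part of the library set in these values was not tested sheep by sheep.

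Within the prenatal T cohort the log2 ratio of MIR10A to MIR10B of visceral over subcutaneous fat was 0.69 in prenatal T sheep (SD 0.32, n = 4) and 1.39 in control sheep (SD 0.27, n = 4). The difference of -0.70 had an exact permutation p of 0.0286, the smallest that 4 against 4 sheep can give, with every prenatal T sheep below every control sheep. Its adjusted p was 0.2 over 7 depot pairs, so it did not pass. A single pair cannot pass after that adjustment with 4 against 4 sheep, so the adjusted p does not decide the question. This comparison was added after the data had been seen.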

How the results depend on the processing

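Of 238 alternative values for depot differences averaged over treatments, 219 kept direction and side of the threshold, as did 152 of 180 for treatment. The alternatives for treatment were not all separate. Perirenal and subcutaneous fat of the prenatal T cohort and subcutaneous fat of the BPA cohort each had a set with 1 library. There the set term gave the same treatment difference as leaving out that sheep. For ratios, 84 of 91 alternatives for depots and 60 of 60 for treatment were counted as kept. Depot ratios of 5 or fewer sheep, and ratios without a p, were counted as kept when less than the SD away from the main value. Their p was not used, since 5 sheep allow none below 0.0625. Treatment ratios had little room to change, since no depot alone could pass after adjustment. The cause was not tested for any that moved. Depth limits the ratio most in epicardial libraries, where the counting error of its log2 value reached 0.164. With the sheep as a replicate block, depot differences such as MIR10A of perirenal over visceral fat (0.76, adjusted p = 0.0264) kept every call, and the exact ratio tests, which are paired by sheep, kept theirs with no replicate block.

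With the set term (log2 differences), MIR10A was -0.21 for visceral over subcutaneous fat in the BPA cohort (-0.29 in BPA and -0.12 in control sheep), 0.28 for perirenal over visceral fat (-0.0018 in prenatal T sheep) and -0.52 for visceral over subcutaneous fat in the prenatal T cohort. Treatment differences with it were 0.13 for MIR10A in BPA visceral fat, 0.13 for MIR10A in visceral fat of the prenatal T cohort, 0.067 for MIR10B in BPA subcutaneous fat, and -0.30 and -0.20 for MIR10B in perirenal and subcutaneous fat of the prenatal T cohort. Interactions, none of them called, were -0.10 (epicardial over subcutaneous), -0.14 (epicardial over visceral) and 0.045 (visceral over subcutaneous) for MIR10A, and -0.46 (epicardial over visceral) and 0.16 (BPA cohort) for MIR10B. The ratio of perirenal over subcutaneous fat was -1.22 in the sheep with both libraries of the same set, too few for any pair to pass after adjustment.

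As deposited, MIR10A was -0.19 for visceral over subcutaneous fat in BPA sheep and 0.57 for perirenal over subcutaneous fat (0.33 in prenatal T sheep), and MIR10B 0.045 for epicardial over visceral fat (0.39 in prenatal T sheep). With CPM, MIR10A was 0.043 for perirenal over subcutaneous fat, MIR10B -0.63 for epicardial over visceral fat, and treatment differences of MIR10A were -0.059 in BPA subcutaneous, 0.47 in perirenal and 0.42 in visceral fat; interactions were 0.056 for MIR10A (perirenal over visceral), and 0.12 (BPA cohort) and 0.27 (perirenal over subcutaneous) for MIR10B. Median ratios over the cohort gave 0.021 for treatment of MIR10A in visceral fat, and no filter 0.76 (adjusted p = 0.0523) for MIR10A of perirenal over visceral fat. By edgeR, treatment differences of MIR10A were -0.074 in BPA subcutaneous and 0.027 in visceral fat, perirenal over subcutaneous fat of control sheep was -0.12, and interactions were 0.15 for MIR10A (perirenal over visceral) and 0.17 for MIR10B (BPA cohort). By DESeq2, MIR10A was -0.0022 for visceral over subcutaneous fat in BPA sheep and -0.12 for BPA treatment in subcutaneous fat, and MIR10B 1.29 for treatment in epicardial fat and 0.16 for the BPA interaction.

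Leaving out each sheep in turn gave, for MIR10A, 0.10 to 0.57 for visceral over subcutaneous fat in the BPA cohort (-0.17 to 0.25 in BPA sheep), -0.40 to 0.42 for perirenal over subcutaneous fat of control sheep and 0.62 to 0.93 for perirenal over visceral fat. For MIR10B it gave -1.30 to -1.02 for epicardial over visceral and 0.61 to 1.14 for perirenal over subcutaneous fat. Treatment differences of MIR10A ran -0.045 to 0.72 in BPA subcutaneous, 0.57 to 1.18 in epicardial, -0.46 to 0.10 in perirenal and -0.28 to 0.10 in visceral fat, and those of MIR10B -0.60 to 0.067 in BPA subcutaneous, -0.30 to 0.39 in perirenal and -0.20 to 0.31 in subcutaneous fat. Interactions ran -0.15 to 0.50 (epicardial over subcutaneous) and -0.34 to 0.27 (perirenal over visceral) for MIR10A, and -0.45 to 0.27 (BPA cohort), -0.69 to 0.43 (perirenal over subcutaneous), -0.67 to 0.22 (perirenal over visceral) and -0.016 to 0.61 (visceral over subcutaneous) for MIR10B. Log2 ratios ran 0.21 to 0.43 for epicardial over perirenal and -1.01 to -0.66 for epicardial over subcutaneous fat.

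Counts of microRNAs called, with their range over the other fits, were 10 (6 to 61) for epicardial over visceral and 21 (7 to 63) for perirenal over visceral fat. The share of calls that were higher ran 33.3% to 62.5% over the 7 depot pairs, 25% to 100% as deposited, 58.6% to 92.9% with CPM and 47.1% to 80% with TMM. The median of all microRNAs lay at -0.09 to 0.19, -0.53 to 1.43 as deposited, 0.01 to 0.55 with CPM and -0.08 to 0.30 with TMM.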
